A study of Homo sapiens with 9 samples.

Results

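The comparison described here set Huh7 cells carrying the second ZMAT2 short hairpin, labelled shZMAT2-2, against control Huh7 cells, with 3 libraries in each group. Its members were the protein-coding genes that reached 1 FPKM in 3 or more of these 6 libraries, 10065 of the 27421 genes in the deposited table. FPKM divides a gene's sequenced fragments by its length and by the depth of the library. Of the members, 57 reached 1 FPKM only in the 3 shZMAT2-2 libraries and 16 only in the 3 control libraries. At the edge of the rule, the third-highest of the 6 values was 1 FPKM for FSBP just inside it and 0.9993 for PRG4 just outside it.

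Huh7 is an established human hepatocellular carcinoma line. All 9 samples of the study are untreated beyond the hairpins as far as the labels say: 3 control, 3 shZMAT2-1 (the first hairpin) and 3 shZMAT2-2. The labels do not say whether the control cells carried a non-targeting hairpin, how the hairpins were delivered, whether a line was a clone, or when the RNA was taken. Nor do they describe replicates as independent cultures, and every p-value therefore measures only the spread between these libraries.

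ZMAT2 is a zinc finger protein that enters the spliceosome with the tri-snRNP, the particle that brings the U4, U5 and U6 RNAs to an intron, and leaves again before the first cut is made. The study asked whether ZMAT2 acts on hepatocellular carcinoma through splicing, and its title names TRIM28, a corepressor that recruits chromatin-silencing enzymes, as a spliced target. Gene-level FPKM gives the amount of a gene's RNA and cannot show which isoform was made. Hepatocytes are known for secreting plasma proteins, while the chemokine, matrix and cytoskeletal genes that lead this comparison are typical of inflamed, spread or dedifferentiated epithelial cells. Whether the hairpin cells were in any such state was not tested.

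The 12 hepatocyte markers fitted the label, with ALB the highest at up to 2398 FPKM. Of the 9 fibroblast, 9 endothelial and 9 leukocyte markers in the table, 2, 1 and 2 reached 1 FPKM in any of the 6 libraries, and the highest were PDGFRB at 1.57, PECAM1 at 1.70 and LYZ at 131 FPKM. Recovered depth was 18430000 to 23740000 fragments per library over the 9 libraries, and 0.126 to 0.163 FPKM correspond to 3 fragments on a transcript of 1 kb. Far larger was the spread in mitochondrial RNA. The 13 mitochondrially encoded genes held 28.8%, 80.8% and 29.9% of the summed FPKM in control replicates 1, 2 and 3, and 65.9%, 46.2% and 49.0% in shZMAT2-2 replicates 1, 2 and 3. The means were 46.5% ± 29.7 and 53.7% ± 10.7 (SD, n = 3 each, two-sided exact permutation test, p = 0.6, where 0.1 is the smallest p that 3 against 3 allows). Control replicate 2 stood apart: 26.0% of the members lay more than 1 log2 unit from the mean of the other 2 controls, against 0.0298% to 1.59% for the other 5 libraries. Values without control replicate 2 are therefore given beside many of the results below.

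**Figure D1:**
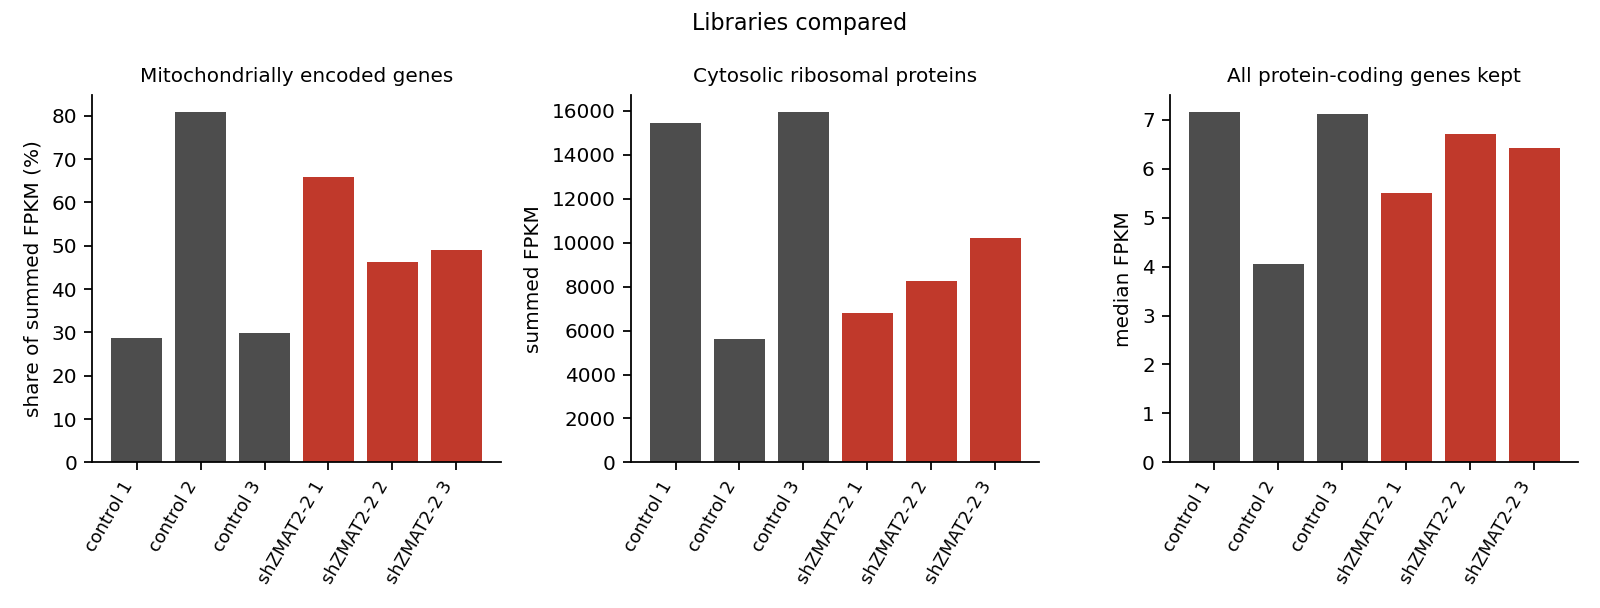
Bars give, for each of the 6 libraries, the share of summed FPKM from mitochondrially encoded genes (%), the summed FPKM of the cytosolic ribosomal protein genes and the median FPKM of the 10065 genes. Control replicate 2, at 80.8%, has the highest mitochondrial share and the lowest ribosomal sum and median, and the 3 shZMAT2-2 libraries lie between it and the other 2 controls in all 3 panels.

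ZMAT2 itself (ENSG00000146007, chromosome 5, 140698680 to 140706686 in the deposited table) was lower in every shZMAT2-2 library. It had 37.5, 32.8 and 39.2 FPKM in the controls and 22.1, 20.3 and 20.8 FPKM in shZMAT2-2. The groups did not overlap, and the shZMAT2-2 mean of 21.1 ± 0.922 FPKM was 57.7% of the control mean of 36.5 ± 3.32 FPKM (SD, n = 3 each). The difference on the log2(FPKM + 1) scale was -0.76 (SE 0.17), with a limma adjusted p of 0.11, and the exact permutation p was 0.1, the smallest possible. Without control replicate 2 the difference was -0.84 and passed the test, with a limma adjusted p of 0.016. The first hairpin left 15.2, 12.8 and 13.2 FPKM, below all 3 shZMAT2-2 libraries. The difference between the arms, 0.59 on the log2 scale, did not pass the test (limma adjusted p = 0.66).

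TRIM28 (ENSG00000130726, chromosome 19) varied more within the groups than between them. It had 149, 52.6 and 148 FPKM in the controls and 72.2, 98.6 and 125 FPKM in shZMAT2-2, and the ranges overlapped. Its low control value came from replicate 2. The log2 difference was -0.13 (SE 0.42, limma adjusted p = 1.00), and -0.62 without control replicate 2 (limma adjusted p = 0.19).

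With all libraries, most genes that passed the test were higher in the hairpin cells, and most of them were expressed at low levels. A gene was called where its limma adjusted p, taken over all 11245 genes tested in the 9 libraries, was below 0.05. In this comparison 66 genes were called, 0.587% of those tested: 57 higher (0.507%) and 9 lower (0.08%). Of the members, 54 were called higher (0.537%) and 9 lower (0.0894%), close to the background shares. The called members include 15 of the 57 genes that entered only through the shZMAT2-2 libraries and 4 of the 16 that entered only through the controls, which the rule itself favours. Among the 54 higher genes, 41 had a control mean below 5 FPKM and 16 below 1 FPKM, and their log2 fold changes ran from 0.72 to 2.23. Adding 1 FPKM before taking logs understates the change of such low genes.

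All 63 called members kept the groups apart, with every shZMAT2-2 library beyond every control library. Over all members, 1247 did so upward, where the background is 11.9%, and 133 downward, where it is 1.52%. Control replicate 2 was the lowest control in 42 of the 54 higher genes. Without it, all 63 were called in the same direction. None of the 63 changed sign when any 1 of the 9 libraries was left out, which groups that do not overlap make certain. The adjusted p was less steady: each called gene passed in 1 to 7 of the 9 leave-one-out fits (median 2). Among the genes that passed in 7 were GBP1, PALMD, LAD1, L1CAM, CCDC80, CTSE and HABP2, of which GBP1, L1CAM and CCDC80 are members only through the shZMAT2-2 libraries. The share of calls that were higher was 86.4%, against 70.7% with median-of-ratios scaling, 68.2% with quantile normalization and 75.2% with scaling on nuclear genes. It was 47.0% without control replicate 2, when more genes were called lower than higher.

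**Figure D2:**
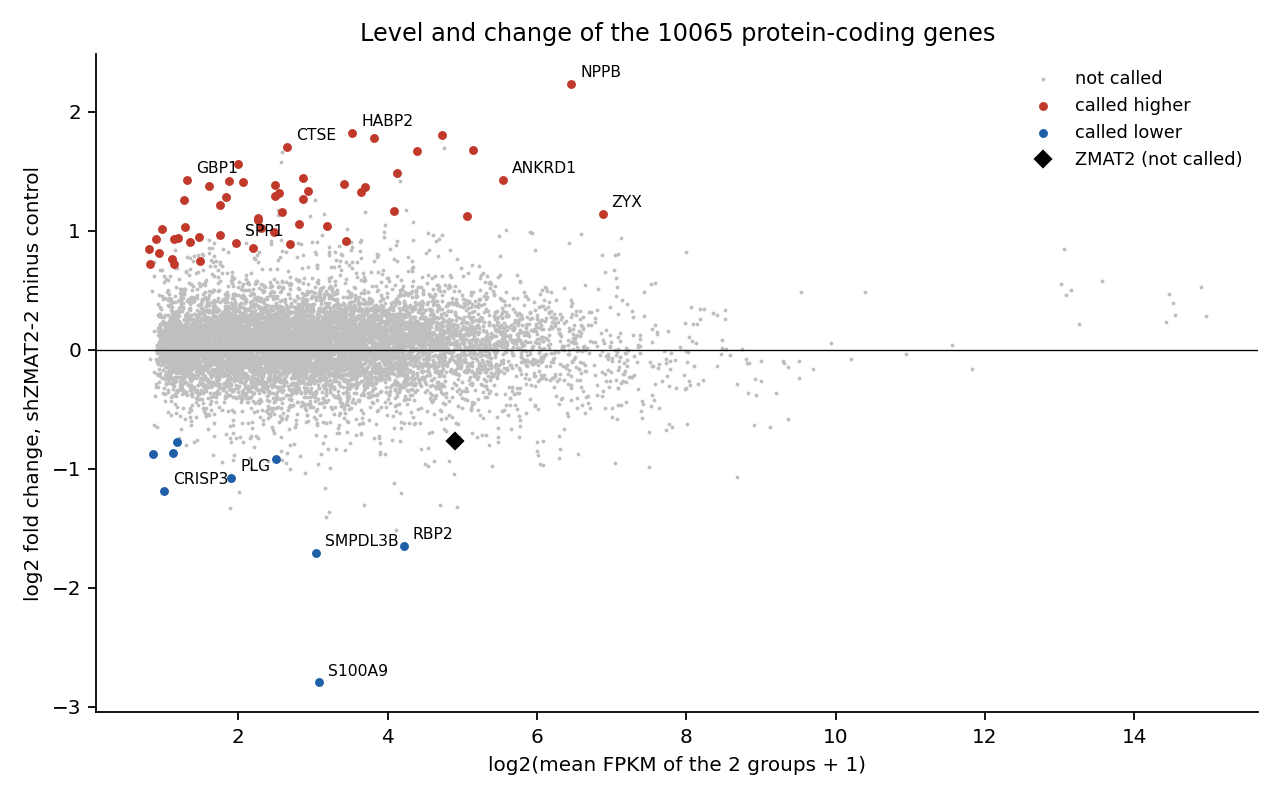
Each point is 1 of the 10065 genes, with its mean level, log2(mean FPKM of both groups + 1), on the horizontal axis and its log2 fold change, shZMAT2-2 minus control, on the vertical axis. The 54 genes called higher and the 9 called lower sit mostly at low levels, and ZMAT2 at -0.76 was not called.

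The neutrophil-attracting chemokines CXCL1 and CXCL8 and the cytokine IL18 were called higher. They passed in 6, 2 and 5 of the 9 leave-one-out fits, in that order. CXCL1 (ENSG00000163739, chromosome 4, 73869393 to 73871308), CXCL8 (ENSG00000169429, chromosome 4, 73740519 to 73743716) and CXCL6 (ENSG00000124875, chromosome 4, 73836640 to 73849064) lie in one chemokine cluster and draw neutrophils through shared receptors. In epithelial cells such genes are classic targets of NF-kB, a transcription factor whose binding sites resemble GGAATTTCC. The 250 bases before the RefSeq start of each gene are shown because the 3 genes share that motif, which is in capitals. In CXCL8 the capitals also mark TGANTCA, the motif of AP-1. The build is GRCh38.p14, all 3 are on the plus strand, and the windows are chr4:73869143-73869392 for CXCL1, chr4:73740319-73740568 for CXCL8 and chr4:73836428-73836677 for CXCL6.
CXCL1: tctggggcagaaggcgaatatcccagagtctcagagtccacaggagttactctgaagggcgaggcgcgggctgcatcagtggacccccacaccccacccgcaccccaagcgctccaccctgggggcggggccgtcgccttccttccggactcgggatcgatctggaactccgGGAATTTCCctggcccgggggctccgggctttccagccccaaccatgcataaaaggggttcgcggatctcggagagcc
CXCL8: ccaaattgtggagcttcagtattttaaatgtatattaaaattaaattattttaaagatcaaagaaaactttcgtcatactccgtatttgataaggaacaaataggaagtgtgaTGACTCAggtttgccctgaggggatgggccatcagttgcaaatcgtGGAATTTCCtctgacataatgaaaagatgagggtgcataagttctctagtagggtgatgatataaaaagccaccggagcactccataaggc
CXCL6: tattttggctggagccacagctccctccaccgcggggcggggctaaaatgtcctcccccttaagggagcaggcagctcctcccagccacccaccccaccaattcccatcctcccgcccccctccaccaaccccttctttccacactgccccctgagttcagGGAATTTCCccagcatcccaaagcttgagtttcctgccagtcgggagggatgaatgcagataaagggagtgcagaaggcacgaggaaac
GGAATTTCC began 78, 91 and 89 bases before the start in CXCL1, CXCL8 and CXCL6. On either strand it occurs in 0.461% of 35116 RefSeq windows that run from 250 bases before a start to 50 after it. Of the 54 genes called higher, 41 had a window, and CXCL1 and CXCL8 were the only 2 with the motif (4.88%). None of the 9 genes called lower had it. A match of letters is no evidence of binding, and CXCL6 was looked at for its place in the cluster, not for a call.

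CXCL1 had 11.8, 7.74 and 13.4 FPKM in the controls and 36.6, 41.4 and 42.3 FPKM in shZMAT2-2. The groups did not overlap, and the hairpin mean was 3.65 times the control mean (log2 difference 1.81, SE 0.22, limma adjusted p = 0.0087). CXCL8, which encodes interleukin-8, had 6.82, 2.74 and 7.39 FPKM in the controls and 20.4, 20.2 and 21.02 FPKM in shZMAT2-2. Its hairpin libraries differed by under 1 FPKM while control replicate 2 lay well below the other controls, and the log2 difference was 1.78 (SE 0.29, limma adjusted p = 0.026) with all libraries and 1.41 without that control. CXCL6 had 2.40, 0.965 and 2.80 FPKM in the controls and 6.29, 9.54 and 7.73 FPKM in shZMAT2-2. These ranges did not overlap either, but the gene missed the threshold (log2 difference 1.57, limma adjusted p = 0.055) and passed it without control replicate 2 (1.28, limma adjusted p = 0.039). CXCL1 shares long stretches with CXCL2 and CXCL3, so its reads may be divided among them in ways the deposited values do not show.

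IL18, an interleukin-1 family cytokine, rose from 5.34, 3.79 and 5.63 FPKM to 14.1, 14.04 and 15.2 FPKM, 2.93 times the control mean (log2 difference 1.39, SE 0.18, limma adjusted p = 0.011). The list of 40 NF-kB and cytokine genes had 26 members, of which these 3 genes (CXCL1, CXCL8 and IL18) were called higher and 0 lower. Estimates were higher for 22 of the 26. Over all 11245 genes tested, 58.4% of estimates were higher, and 33.5% without control replicate 2, which is the background for every list below. For counts of calls the background is 0.626% of all members. The lists were chosen with earlier results of these data known, so counts of calls in them are a description only. The list's median log2 difference was 0.38, against 0.05 over all 11245 genes tested, and 0.21 against -0.15 without control replicate 2.

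Guanylate-binding proteins, GTPases that are best known as interferon-inducible defences against intracellular pathogens, went from near absence to a low level. GBP1 had 0.289, 0.351 and 0.392 FPKM in the controls and 2.66, 2.53 and 2.67 FPKM in shZMAT2-2, 7.62 times the control mean (log2 difference 1.43, SE 0.14, limma adjusted p = 0.0055). The 3 libraries of each group were nearly level, control replicate 2 included. GBP2 rose from 0.638, 0.593 and 0.569 FPKM to 1.81, 1.71 and 1.64 FPKM (log2 difference 0.77, limma adjusted p = 0.019). TAPBP, or tapasin, which helps load peptides onto MHC class I, rose from 4.23, 3.18 and 3.35 FPKM to 7.92, 9.24 and 8.42 FPKM (log2 difference 1.06, limma adjusted p = 0.041). These 3 were the called genes among 15 members of the interferon and antigen presentation list, and 0 were lower. GBP1 and GBP2 are members only through the 3 shZMAT2-2 libraries, so the count of 3 supports nothing. The list as a whole did not stand apart: 9 estimates were higher and 6 lower, with a median of 0.18, and -0.10 without control replicate 2.

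NPPB, which encodes the precursor of B-type natriuretic peptide and is known from strained heart muscle, had the largest estimate among the genes called higher. It lies on chromosome 1 (ENSG00000120937, 11857464 to 11858945). Its levels were 41.1, 14.1 and 41.0 FPKM in the controls and 114, 133 and 179 FPKM in shZMAT2-2, 4.43 times the control mean (log2 difference 2.23, SE 0.40, limma adjusted p = 0.043). Control replicate 2 lay far below the other controls, and without it the difference was 1.74. EDN1, the precursor of the vasoconstrictor endothelin-1, rose from 2.60, 1.96 and 2.50 FPKM to 6.89, 8.03 and 7.06 FPKM (log2 difference 1.32, SE 0.16, limma adjusted p = 0.0087). Here control replicate 2 was close to the other controls. Among the 6 members of the natriuretic peptide and endothelin list these were the only 2 called, against 0.626% of all members. The list was chosen with earlier results of these data known, so this count supports nothing.

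ANKRD1 and CCN1, which are widely read as targets of YAP and TEAD, the transcription factors through which cells respond to spreading and tension, rose together. ANKRD1 had 28.8, 17.4 and 27.6 FPKM in the controls and 64.9, 71.6 and 62.9 FPKM in shZMAT2-2 (log2 difference 1.43, SE 0.22, limma adjusted p = 0.023). CCN1 had 22.3, 16.8 and 21.3 FPKM in the controls and 38.7, 48.4 and 47.5 FPKM in shZMAT2-2 (log2 difference 1.12, SE 0.20, limma adjusted p = 0.040). Neither gene's groups overlapped. The YAP and TEAD list had 24 members, with 2 called higher and 0 called lower, against 0.626% called of all members. It had 21 higher estimates, and its median was 0.42, or 0.21 without control replicate 2. The ANKRD1 promoter is shown because its window holds the TEAD motif GGAATG in 2 places and TGANTCA in 1. The 250 bases before the RefSeq start are chr10:90921088-90921337 on the minus strand of GRCh38.p14, printed in the direction of transcription with those motifs in capitals.
ANKRD1: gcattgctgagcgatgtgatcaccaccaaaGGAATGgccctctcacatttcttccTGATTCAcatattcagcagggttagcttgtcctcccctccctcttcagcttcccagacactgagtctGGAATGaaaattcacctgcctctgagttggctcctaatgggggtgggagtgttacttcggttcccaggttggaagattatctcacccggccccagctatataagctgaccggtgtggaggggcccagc
GGAATG began 220 and 128 bases before the start, and TGANTCA 195 bases before it. On either strand GGAATG occurs in 14.03% of all windows, in 10 of the 41 genes called higher that had a window (24.4%) and in 3 of the 9 called lower (33.3%). TGANTCA occurs in 7.71% of all windows and in 3 of the 41 (7.32%), which are ANKRD1, CXCL8 and HABP2.

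Genes of the actin cytoskeleton had higher estimates almost throughout, though few passed the test one by one. The list of targets of SRF and MRTF, the pair that senses free actin, had 24 members, and all 24 had higher estimates (23 with median-of-ratios scaling). Its median was 0.54, or 0.34 without control replicate 2, when 21 of the 24 were higher. The 2 called, against 0.626% of all members, were ZYX and TPM1. ZYX, or zyxin, a focal adhesion protein, rose from 73.4, 67.2 and 75.4 FPKM to 150.04, 148 and 185 FPKM and had the highest control level of all called genes (log2 difference 1.15, SE 0.20, limma adjusted p = 0.039). TPM1, a tropomyosin that lines actin filaments, rose from 3.67, 2.43 and 3.90 FPKM to 8.28, 9.78 and 9.87 FPKM (log2 difference 1.26, limma adjusted p = 0.018).

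The called genes MICAL2 and COTL1 also act on actin, though they are on no list. MICAL2, which oxidises actin and so promotes filament loss, rose from 2.22, 1.94 and 2.13 FPKM to 6.80, 7.91 and 6.58 FPKM (log2 difference 1.39, limma adjusted p = 0.012). PALMD is named for its rank among the largest changes, not for a role in actin. It rose from 1.27, 1.41 and 1.18 FPKM to 5.12, 5.22 and 4.89 FPKM (log2 difference 1.41, limma adjusted p = 0.0055). COTL1, an actin-binding protein of the cofilin family, moved the other way, from 7.16, 5.30 and 6.90 FPKM to 2.65, 2.87 and 3.27 FPKM (log2 difference -0.92, limma adjusted p = 0.040). TPM4, another tropomyosin, had 53.3, 73.0 and 52.6 FPKM in the controls and 120.4, 110.3 and 103 FPKM in shZMAT2-2. It was not called with all libraries (0.90, limma adjusted p = 0.20) and was without control replicate 2 (1.05, limma adjusted p = 0.029).

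VIM, the intermediate filament vimentin that is a usual mark of mesenchymal and dedifferentiated cells, rose from 18.8, 11.3 and 18.1 FPKM to 44.7, 53.2 and 60.7 FPKM. That was 3.29 times the control mean (log2 difference 1.68, SE 0.24, limma adjusted p = 0.018), and 1.46 on the log2 scale without control replicate 2. It was the 1 called gene among 10 intermediate filament members, whose median was 0.29 with all libraries and -0.12 without that control. None of the 4 expressed epithelial-mesenchymal transcription factors was called, and their median was 0.14, or 0.04 without control replicate 2. The summed level of the 9 fibroblast markers was 2.09 to 4.43 FPKM in the controls and 2.37 to 3.69 FPKM in shZMAT2-2. PDGFRB and COL1A2 reached 1 FPKM in some libraries, DCN and THY1 were at or near 0 in all 6, and the part of these markers in the result was not tested.

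**Figure D3:**
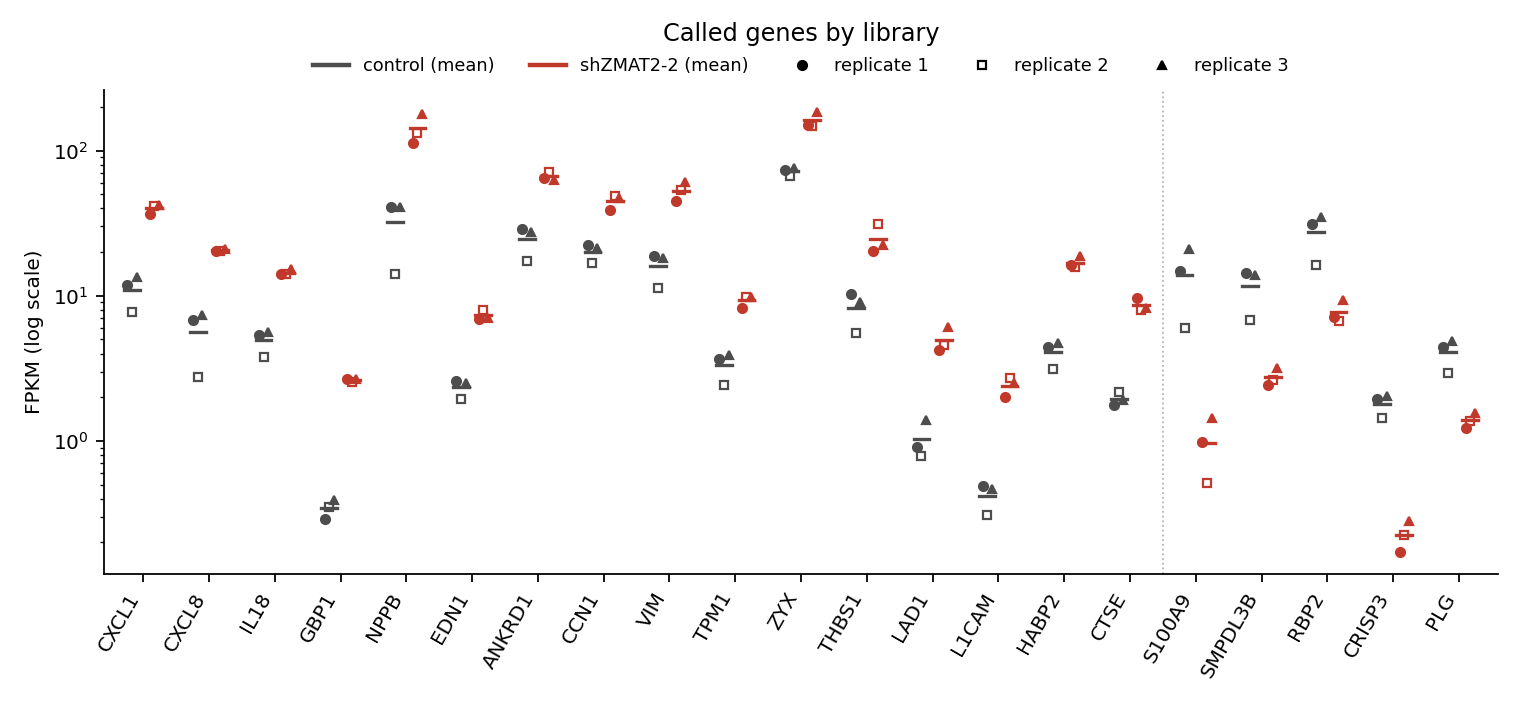
FPKM on a log axis of 21 called genes in the 3 control and 3 shZMAT2-2 libraries, with a bar at each group mean and a symbol for each replicate number. The 16 genes left of the dotted line rose and the 5 to its right fell, no gene's groups overlap, and control replicate 2 (open grey square) is the lowest control in most of the genes shown.

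Among genes for matrix, THBS1, SERPINE2 and SPP1 rose. THBS1, or thrombospondin-1, a matricellular protein that activates latent TGF-beta, rose from 10.3, 5.50 and 9.03 FPKM to 20.3, 31.2 and 22.5 FPKM (log2 difference 1.48, SE 0.26, limma adjusted p = 0.040). SERPINE2, an inhibitor of thrombin and plasminogen activators, rose from 5.25, 4.23 and 5.49 FPKM to 10.9, 11.7 and 11.2 FPKM (log2 difference 1.04, limma adjusted p = 0.020). SPP1, or osteopontin, rose from 1.78, 1.69 and 1.70 FPKM to 3.99, 4.47 and 3.78 FPKM (log2 difference 0.90, limma adjusted p = 0.023). Its 3 controls were nearly level, and the difference was 0.89 without control replicate 2. SPP1 is also 1 of the 8 cholangiocyte markers, of which 5 were members, all 5 with higher estimates (median 0.49). The summed level of these 8 was 71.1 to 98.0 FPKM in the controls and 91.2 to 99.1 FPKM in shZMAT2-2, with KRT7 at 0 in all 6 libraries, and their part in the result was not tested. THBS1, SERPINE2 and SPP1 were the 3 called among 18 members of the matrix list, against 0.626% called of all members. The list had 15 higher estimates and a median of 0.47, or 0.27 without control replicate 2, when 5 were called higher and 1 lower.

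LOXL4, a copper-dependent enzyme that crosslinks collagen and elastin, rose from 13.002, 4.91 and 10.5 FPKM to 25.7, 33.2 and 32.5 FPKM (log2 difference 1.67, SE 0.31). Its limma adjusted p of 0.049 was the highest among the called genes. P3H2, CCDC80, SULF2 and CHST15, chosen for mention after their values were seen, also act on collagen, matrix or its sugar chains. CCDC80 and CHST15 are members only through the shZMAT2-2 libraries. P3H2, a collagen prolyl 3-hydroxylase, rose from 6.56 ± 0.760 to 13.2 ± 0.440 FPKM. SULF2, which removes sulfate from heparan chains outside the cell, rose from 3.54 ± 0.324 to 7.42 ± 0.429 FPKM. CCDC80 rose from 0.3003 ± 0.0903 to 1.63 ± 0.187 FPKM and CHST15, a chondroitin sulfotransferase, from 0.569 ± 0.150 to 2.01 ± 0.328 FPKM (SD, n = 3 for each mean).

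All 19 members of the basement membrane and integrin list had higher estimates, also under each of the 4 other scalings. Without control replicate 2 it was 13 of 19, and the median moved from 0.31 to 0.13. LAD1, the anchoring filament protein ladinin-1, rose from 0.902, 0.791 and 1.39 FPKM to 4.25, 4.598 and 6.05 FPKM, 4.84 times the control mean (log2 difference 1.56, SE 0.17, limma adjusted p = 0.0087). NID2, or nidogen-2, which links laminin to collagen IV, rose from 1.27, 1.01 and 0.953 FPKM to 3.92, 4.80 and 3.52 FPKM (log2 difference 1.29, limma adjusted p = 0.018). NPNT, an integrin ligand of basement membranes that is on no list and was chosen after its values were seen, rose from 2.04 ± 0.424 to 5.55 ± 0.715 FPKM (SD, n = 3 each, log2 difference 1.11, limma adjusted p = 0.021).

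Adhesion molecules were represented by L1CAM and CDH6, which are members only through the 3 shZMAT2-2 libraries. L1CAM, an immunoglobulin-family adhesion protein of neurons and invasive carcinomas, rose from 0.486, 0.307 and 0.465 FPKM to 2.00, 2.71 and 2.49 FPKM, 5.73 times the control mean (log2 difference 1.26, SE 0.15, limma adjusted p = 0.0087). CDH6, a cadherin of kidney and embryonic epithelia, rose from 0.808, 0.657 and 0.873 FPKM to 2.21, 2.73 and 2.097 FPKM (log2 difference 0.91, limma adjusted p = 0.020). CDH6 was the 1 called of 23 cadherin and junction genes, but its membership through shZMAT2-2 alone means that this count supports nothing. The list's median was 0.27, or 0.16 without control replicate 2. The plakins PPL and EPPK1, which tie junctions to intermediate filaments, rose from 2.25 ± 0.520 to 5.59 ± 0.893 FPKM and from 0.519 ± 0.209 to 1.89 ± 0.356 FPKM (SD, n = 3 for each mean). Both were chosen for mention after their values were seen, and EPPK1 is a member only through the shZMAT2-2 libraries.

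AREG, or amphiregulin, a ligand of the EGF receptor, rose from 3.22, 2.40 and 2.53 FPKM to 7.13, 6.59 and 8.19 FPKM (log2 difference 1.16, limma adjusted p = 0.018). It was the 1 called of 6 members of the EGF receptor list. IGFBP3, which binds insulin-like growth factors in plasma, rose from 3.79, 2.23 and 4.13 FPKM to 9.09, 10.2 and 10.3 FPKM (log2 difference 1.34, limma adjusted p = 0.019). INHBB, the beta subunit of activin B, rose from 0.382, 0.0546 and 0.324 FPKM to 1.087, 1.10 and 1.55 FPKM (log2 difference 0.84, limma adjusted p = 0.039). Its level in control replicate 2 was under what 3 fragments give on a 1 kb transcript. INHBB was the 1 called of 29 TGF-beta and activin genes. It is a member only through the shZMAT2-2 libraries, so that count supports nothing. The list's median was 0.13. That median was -0.02 without control replicate 2, with 13 in place of 24 higher estimates, 3 called higher and 1 called lower. Another member of that list, BMP4, had 3.48, 5.10 and 3.53 FPKM in the controls and 8.44, 7.74 and 8.59 FPKM in shZMAT2-2. These did not overlap, and BMP4 missed the threshold with all libraries (0.89, limma adjusted p = 0.055) and passed it without control replicate 2 (1.04, limma adjusted p = 0.0044).

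The 24 immediate early and AP-1 genes, which switch on within minutes of many stimuli, held no called gene, against 0.626% called of all members. JUNB had 14.9, 8.77 and 15.8 FPKM in the controls and 20.4, 26.0 and 29.6 FPKM in shZMAT2-2 (log2 difference 0.92, limma adjusted p = 0.21). IER3 had 17.8, 14.9 and 17.7 FPKM and then 26.2, 36.8 and 39.5 FPKM (0.97, limma adjusted p = 0.18). Neither pair of groups overlapped. The list's median was 0.14, and -0.07 without control replicate 2, when 3 were called higher and 1 lower.

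Several strongly changed genes belonged to none of the lists. HABP2, a hyaluronan-binding serine protease that liver secretes into plasma, had 4.43, 3.14 and 4.75 FPKM in the controls and 16.2, 15.8 and 18.7 FPKM in shZMAT2-2, 4.12 times the control mean (log2 difference 1.82, SE 0.19, limma adjusted p = 0.0055). CTSE, the aspartic protease cathepsin E of gastric and immune cells, had 1.78, 2.17 and 1.93 FPKM in the controls and 9.65, 8.03 and 8.24 FPKM in shZMAT2-2, 4.41 times the control mean (log2 difference 1.70, SE 0.17, limma adjusted p = 0.0055). In CTSE control replicate 2 was the highest control, so that leaving it out widened the difference to 1.75. SOD3, the extracellular superoxide dismutase, rose from 0.583, 1.34 and 1.06 FPKM to 4.48, 3.36 and 5.14 FPKM (log2 difference 1.42, limma adjusted p = 0.014).

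ANXA3, a calcium-dependent membrane-binding protein, rose from 6.38 ± 2.21 to 17.6 ± 2.43 FPKM, and BICC1, an RNA-binding protein of kidney and liver ducts, from 6.10 ± 0.538 to 16.9 ± 3.35 FPKM. SLC48A1, a heme transporter of endosomes, rose from 2.28 ± 0.679 to 6.95 ± 1.28 FPKM, and OR2I1P, an olfactory receptor locus in the MHC region that the table lists as protein-coding, from 2.92 ± 0.505 to 9.60 ± 0.798 FPKM (SD, n = 3 for each mean). The peptidase DPP4 rose from 9.43 ± 0.624 to 22.4 ± 2.0965 FPKM and CAVIN2, a coat protein of caveolae, from 1.03 ± 0.130 to 3.72 ± 0.432 FPKM. DPP4 and CAVIN2 lie outside the ranking by size and were chosen after their values were seen. So were 11 further genes called higher, which rose to shZMAT2-2 means of 1.20 FPKM in PAK5, 1.45 in PPP1R1A, 1.45 in F2RL1, 1.73 in BCAS1, 2.27 in SPSB4, 2.49 in MAF, 2.64 in SUSD2, 3.47 in RFTN1, 4.90 in PCGF5, 5.57 in GLIPR2 and 6.38 in GSTM4. PAK5, PPP1R1A, F2RL1, BCAS1, SPSB4 and SUSD2 are members only through the shZMAT2-2 libraries. GSTM4 has near-identical relatives, and its value may hold reads of theirs.

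The 9 genes that fell were led by S100A9 (ENSG00000163220, chromosome 1, 153357854 to 153361023), a subunit of the calcium-binding inflammatory protein calprotectin. It had 14.7, 6.03 and 20.96 FPKM in the controls and 0.976, 0.515 and 1.43 FPKM in shZMAT2-2. Although the controls were widely spread, the lowest of them was above the highest hairpin library, and the control mean was 14.3 times the shZMAT2-2 mean (log2 difference -2.79, SE 0.41, limma adjusted p = 0.019). In bulk RNA, fewer cells that express a gene and less of its RNA in each cell cannot be told apart. S100A9 and CSF3R, the latter a member only through the 3 control libraries, are also genes of neutrophils. The leukocyte marker PTPRC was near 0 in all 6 libraries, and the summed level of the 9 leukocyte markers, nearly all of it LYZ, was 56.9 to 136 FPKM in the controls and 47.6 to 65.7 FPKM in shZMAT2-2. CSF3R, the receptor of the growth factor G-CSF, fell from 1.35, 1.38 and 1.29 FPKM to 0.317, 0.258 and 0.262 FPKM, with almost no spread within a group (log2 difference -0.87, SE 0.10, limma adjusted p = 0.0087).

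SMPDL3B, a membrane-anchored lipid phosphodiesterase, fell from 14.4, 6.85 and 13.9 FPKM to 2.44, 2.61 and 3.17 FPKM (log2 difference -1.71, SE 0.27, limma adjusted p = 0.025). RBP2, which carries retinol inside cells, fell from 31.2, 16.3 and 35.1 FPKM to 7.18, 6.73 and 9.31 FPKM (log2 difference -1.65, SE 0.29, limma adjusted p = 0.040). PLG, the plasminogen that hepatocytes secrete, fell from 4.44, 2.94 and 4.91 FPKM to 1.23, 1.38 and 1.55 FPKM (log2 difference -1.08, SE 0.17, limma adjusted p = 0.025). In all 3 genes control replicate 2 lay nearest to the hairpin libraries, and leaving it out widened the differences to -2.02, -1.98 and -1.25.

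The last of the genes that fell were low in both groups, and CRISP3, PLAC8 and FUT3 are members only through the 3 control libraries. CRISP3, a secreted cysteine-rich protein, had 1.93, 1.43 and 2.03 FPKM in the controls and 0.172, 0.224 and 0.282 FPKM in shZMAT2-2, little above the level of 3 fragments on a 1 kb transcript (log2 difference -1.19, SE 0.13, limma adjusted p = 0.0087). PLAC8 fell from 1.83 ± 0.303 to 0.542 ± 0.0640 FPKM. FUT3, a fucosyltransferase that makes Lewis antigens, fell from 1.87 ± 0.278 to 0.668 ± 0.123 FPKM (SD, n = 3 for each mean). FUT3 has close relatives beside it, and its reads may be divided among them.

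With 0.626% of all members called, lists of this size hold few or no calls by that share alone. The counts of calls in liver programs therefore say little about them. PLG was the 1 called of 27 coagulation and complement members (median 0.10, and -0.20 without control replicate 2). CRISP3 was the 1 called of 20 oncofetal and liver cancer markers (median -0.07, and -0.30 without control replicate 2). It is a member only through the controls, so that count supports nothing. None was called among 24 acute-phase and serum proteins, 18 apolipoprotein genes, 25 hepatocyte transcription factors, 17 genes of the urea cycle and amino acid breakdown, 26 of cholesterol synthesis and uptake and 22 of fatty acid synthesis. Their medians were -0.08 (0.05 with quantile normalization), 0.01 (-0.01 after quantile normalization and -0.03 after median-of-ratios scaling), 0.14, -0.25, -0.09 and -0.16, in that order. The medians without control replicate 2 were -0.43, -0.20, 0.13, -0.61, -0.43 and -0.42 in the same order. In the urea cycle list ARG1, the arginase that releases urea, had 11.002, 8.49 and 10.9 FPKM in the controls and 5.08, 6.00 and 6.10 FPKM in shZMAT2-2. These groups did not overlap, and ARG1 missed the threshold with all libraries (-0.72, limma adjusted p = 0.17) and passed it without control replicate 2 (-0.83, limma adjusted p = 0.027).

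The lists of ribosomal, respiratory chain, proteasome, ATF4, mitochondrially encoded and metallothionein genes held no called gene with all libraries, against 0.626% of all members. Of 78 cytosolic ribosomal protein genes 74 had lower estimates, with a median of -0.42. Their summed level was 15440, 5597 and 15932 FPKM in the controls and 6791, 8254 and 10212 FPKM in shZMAT2-2, so that control replicate 2 was below all 3 hairpin libraries and the other controls were above them. The median was -0.92 without control replicate 2 and -0.20 with mitochondrial RNA as a covariate. RPS27A, which encodes a ribosomal protein fused to ubiquitin, had 154, 67.7 and 145 FPKM in the controls and 60.3, 53.9 and 73.9 FPKM in shZMAT2-2 (log2 difference -0.88, limma adjusted p = 0.91).

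Nuclear genes for the respiratory chain were similar: 48 of 54 had lower estimates, with a median of -0.29, and -0.71 without control replicate 2. NDUFC1, a complex I subunit, had 8.40, 3.59 and 9.06 FPKM in the controls and 2.83, 2.83 and 3.34 FPKM in shZMAT2-2 (log2 difference -0.92, limma adjusted p = 0.74). The 13 mitochondrially encoded genes all had higher estimates (8 after quantile normalization and 12 after median-of-ratios scaling), with a median of 0.46, and 1.42 without control replicate 2. Proteasome genes had a median of -0.20 and ATF4 target genes of -0.18, and without control replicate 2 these were -0.61 and -0.60. The 7 expressed metallothioneins, which bind zinc and copper, had a median of 0.58, and 0.34 without control replicate 2. MT1F among them had 5.27, 3.45 and 5.00 FPKM in the controls and 8.83, 9.05 and 10.04 FPKM in shZMAT2-2, and was not called with all libraries (0.90, limma adjusted p = 0.065) but was without control replicate 2 (0.75, limma adjusted p = 0.018). The part of the mitochondrial share in the differences of these lists was not tested.

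**Figure D4:**
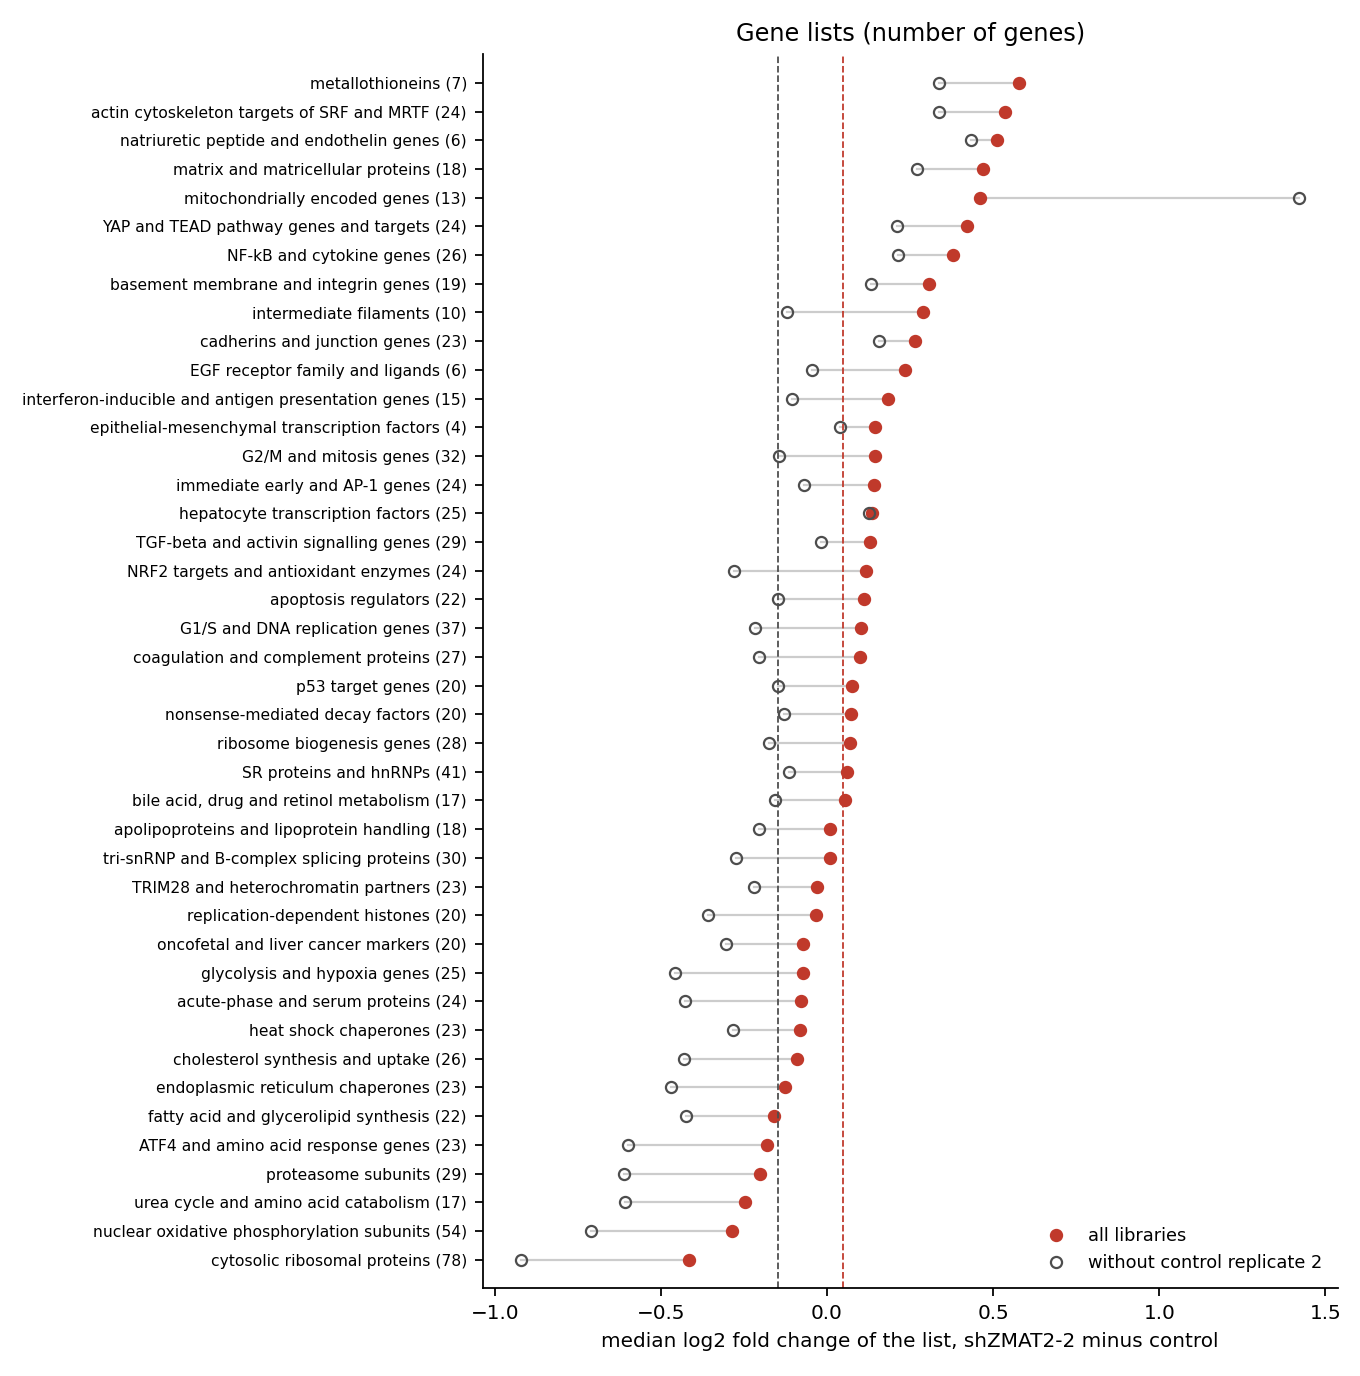
Median log2 fold change, shZMAT2-2 minus control, of each gene list with all libraries and without control replicate 2. The actin list at 0.54 and 0.34 stays above 0, while the ribosomal list moves from -0.42 to -0.92 and the mitochondrially encoded genes from 0.46 to 1.42.

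The splicing machinery around ZMAT2 showed no called gene with all libraries, against 0.626% of all members. Of 30 tri-snRNP and B-complex proteins 15 had higher and 15 lower estimates. The median was 0.01 (-0.05 with median-of-ratios scaling, -0.03 with quantile normalization). It was -0.27 without control replicate 2, when 7 of the 30 were higher and ZMAT2 was the 1 called. Over all genes tested the median was then -0.15 and 33.5% of estimates were higher. IK, which like ZMAT2 belongs to the B complex, had 28.3, 32.7 and 31.7 FPKM in the controls and 37.8, 36.1 and 38.8 FPKM in shZMAT2-2. These ranges did not overlap, yet the difference did not pass the test (0.28, limma adjusted p = 0.99). The 41 SR proteins and hnRNPs had a median of 0.06 (-0.00 with median-of-ratios scaling), and -0.11 without control replicate 2. The 23 genes of TRIM28 and its heterochromatin partners had one of -0.03, and -0.22 without that control.

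Cell cycle genes held no call either, against the same 0.626% of all members. Estimates were higher for 30 of 37 genes of the G1/S transition and DNA replication, with a median of 0.10, and for 23 of 32 of G2/M and mitosis, with a median of 0.14. Over all genes tested 58.4% of estimates were higher. The medians were -0.22 and -0.14 without control replicate 2, when 12 of the 37 and 14 of the 32 were higher. Over all genes tested the median was then -0.15 and 33.5% of estimates were higher, so these lists lay near the background. MYBL2, which switches on genes of dividing cells, had 126, 112 and 123 FPKM in the controls and 154, 152 and 175 FPKM in shZMAT2-2 (log2 difference 0.41, limma adjusted p = 0.76). The 20 p53 targets had a median of 0.07 with all libraries and -0.15 without control replicate 2, when 7 of the 20 were higher and 1 was called lower.

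Leaving out control replicate 2 added many genes that fell. Over all genes tested 270 were then called (2.4%), 127 higher (1.13%) and 143 lower (1.27%), and the median log2 difference moved from 0.05 to -0.15. Of the members 117 were called higher and 124 lower, of which 63 and 115 were not called with all libraries. In 103 of those 115, control replicate 2 lay nearer to the shZMAT2-2 mean than to the mean of the other controls. With mitochondrial RNA as a covariate and all libraries, 1107 of all genes tested were called (9.84%), and 891 members were higher (background 8.38%) and 142 lower (1.47%). All 63 members called with all libraries were among them. Without control replicate 2 and shZMAT2-2 replicate 1, the libraries richest in mitochondrial RNA in their groups, 94 genes were called (0.836%), 62 of them higher (0.551%) and 32 lower (0.285%), and 55 of the 63 members were still called. With the covariate and without control replicate 2, 54 genes were called (0.48%), 42 higher (0.373%) and 12 lower (0.107%), and 30 of the 63 members were still called.

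SPINK1, a secreted trypsin inhibitor of liver cancers, had 33.2, 11.3 and 31.5 FPKM in the controls and 7.49, 6.50 and 8.15 FPKM in shZMAT2-2 (-1.997, limma adjusted p = 0.047, against -1.52 and 0.36 with all libraries). GSTA1, a glutathione transferase with near-identical relatives, had 44.9, 17.7 and 47.9 FPKM and then 13.2, 11.6 and 14.7 FPKM (-1.75, limma adjusted p = 0.0058, against -1.30 and 0.22). In both genes the groups did not overlap, but control replicate 2 was far below the other controls.

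HTRA3, a secreted serine protease, had 14.3, 6.82 and 15.8 FPKM in the controls and 3.51, 3.58 and 4.30 FPKM in shZMAT2-2 (-1.75, limma adjusted p = 0.0043, against -1.40 and 0.077). COL2A1, a fibrillar collagen usual in cartilage, had 222, 85.2 and 223 FPKM and then 67.7, 82.6 and 103 FPKM (-1.41, limma adjusted p = 0.031, against -0.95 and 0.65). HTRA3 kept its groups apart and COL2A1 did not. In the other direction SULT1C4, a sulfotransferase, had 7.99, 22.6 and 7.67 FPKM in the controls and 50.1, 31.7 and 36.4 FPKM in shZMAT2-2 (2.17, limma adjusted p = 0.0052, against 1.70 and 0.12).

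The first hairpin shares these 3 controls, so its differences from control are not an independent repeat. In that arm 9 of 11245 genes were called against control (0.08%). All 63 genes called with the second hairpin had the same sign with the first, and 7 of them were called there: CXCL1, IL18, GBP1, GBP2, LAD1, NPPB and CRISP3. Compared directly, 0 genes differed between the hairpins (0%) by limma's adjusted p, the lowest being 0.66, while 465 genes, 32 of the 63 among them, had an unadjusted p below 0.05. The 63 were chosen by their call in shZMAT2-2, which by itself favours the larger estimate in that arm, so no order of the arms is read from them.

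CTSE showed one of the widest gaps, with 3.58, 4.97 and 3.60 FPKM in shZMAT2-1 against 9.65, 8.03 and 8.24 FPKM in shZMAT2-2 (difference 0.94, limma adjusted p = 0.66). SPP1 had 1.66, 2.199 and 1.69 FPKM in shZMAT2-1, close to its controls, against 3.99, 4.47 and 3.78 FPKM in shZMAT2-2 (0.84, limma adjusted p = 0.66). Both genes kept the arms apart without passing the test. CXCL8 was level between the arms, with 22.7, 17.2 and 21.6 FPKM in shZMAT2-1 and 20.4, 20.2 and 21.02 FPKM in shZMAT2-2 (0.01, limma adjusted p = 0.99). GBP1 had 2.12, 3.28 and 2.46 FPKM in shZMAT2-1, also around its shZMAT2-2 level (0.01, limma adjusted p = 0.98).

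**Figure D5:**
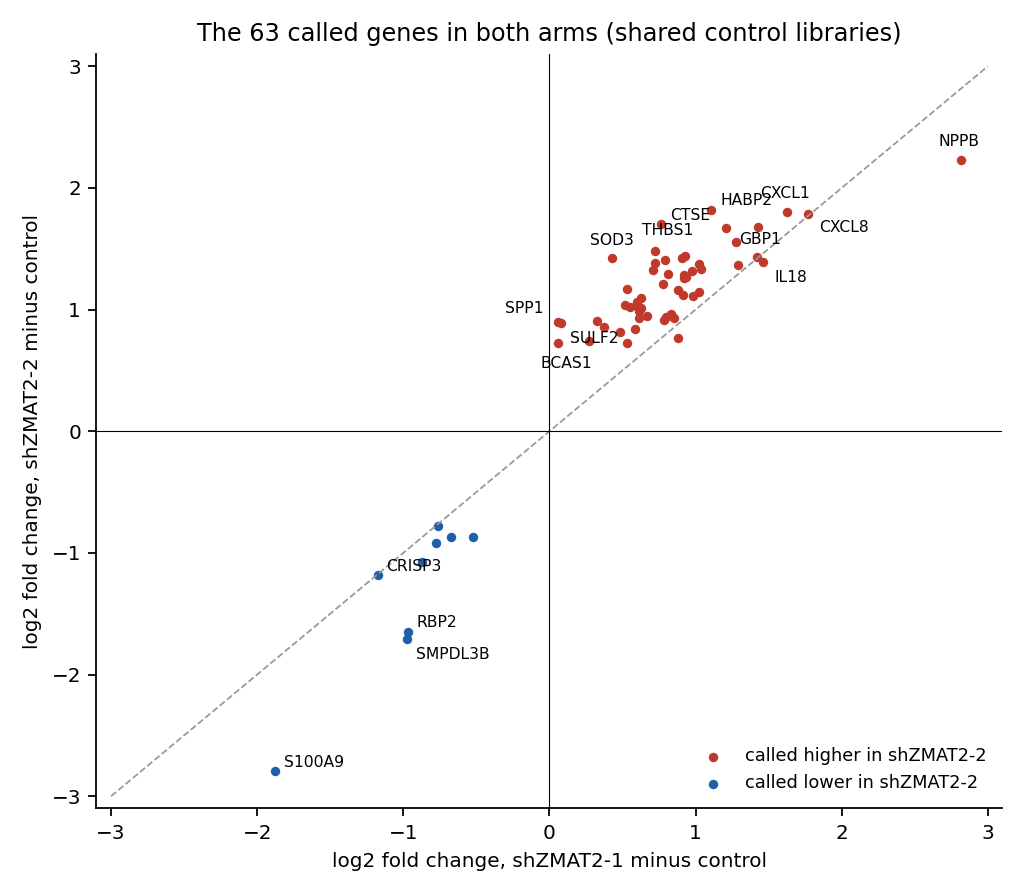
Each point is 1 of the 63 genes called with the second hairpin, with its log2 fold change against the shared controls for shZMAT2-1 and for shZMAT2-2. All 63 have the same sign in both arms. The genes were chosen by their call in shZMAT2-2 and the controls are shared, so their place above or below the diagonal is a description only.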

How the data were processed

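PolyA RNA of 9 Huh7 samples (3 groups of 3) was sequenced from strand-specific libraries, per the labels' protocols. The submitters' processing notes name HISAT, featureCounts and DESeq2, with no version. The genome build, and whether counting used the strand, are not given in the sources used here, so reads of overlapping antisense genes may be mixed. The deposited table holds FPKM values per gene computed by the authors. Steps between low values of 1529 single-exon genes gave whole fragments (100% within 0.1 fragments in every library) and thereby each library's depth. FPKM is relative to the whole library, so a change in 1 abundant class shifts all other values.

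Here log2(FPKM + 1) was fitted with limma 3.58.1 in R 4.3.3, with an intensity trend and group as the only term, over all 9 libraries. Genes that reached 1 FPKM in 3 or more of 9 libraries were tested, with two-sided p-values, Benjamini-Hochberg adjustment over all of them and a threshold of 0.05. The method was tested on simulated data with independent noise in each gene. Those data hold no shift shared by many genes of a library, so they cannot show how the method handles one. Every log2 difference is on that scale, and each fit without control replicate 2 used the other 8 libraries. Exact permutation tests used scipy 1.17.1. No set test was run: lists are described by counts and medians. Promoter windows came from RefSeq (GRCh38.p14), matched by symbol to 41 of 54 genes called higher and 9 of 9 called lower.

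The members and the 42 gene lists were chosen with earlier results of these data known. Named genes were ZMAT2 and TRIM28, all called lower, the 25 called higher with the largest fold change, called list members or else up to 4 by adjusted p, the 3 highest control means in each direction, and the largest changes called only without control replicate 2. Alternatives were another pseudocount, filters, scalings, a replicate block, a mitochondrial covariate (the log2 summed level of the 13 mitochondrial genes), only the 6 libraries, no trend, and leaving out libraries. The covariate together with leaving out control replicate 2, and leaving out libraries for the mitochondrial share, were chosen after seeing the data. Some genes that the rule names are not reported here.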

Additional observations from a re-analysis of the deposited data

How the results depend on the processing

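The number of genes called depended on the fit. Against 66 called with all libraries (57 higher, 9 lower), scaling gave 191 (135 and 56) by median-of-ratios, 195 (133 and 62) by quantile normalization and 161 (121 and 40) on nuclear genes. The mitochondrial covariate gave 1107 (942 and 165). A filter of 5 FPKM, which tests fewer genes, gave 15 (14 and 1). TPM gave 0, with 163 genes at an unadjusted p below 0.05, and a limma fit of only the 6 libraries gave 0, with 642. There were 62 higher and 32 lower without control replicate 2 and shZMAT2-2 replicate 1. Without control replicate 2 and with the covariate, an alternative chosen after seeing the data, there were 42 higher and 12 lower. Where no value shows a cause, the cause was not tested.

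Leaving out 1 library gave 0 to 270 calls, 0 to 127 higher and 0 to 143 lower. Without shZMAT2-2 replicate 2 or 3 limma called 0, with 478 and 539 genes at an unadjusted p below 0.05. Of the 63 members, 14 and 15 were still called without control replicates 1 and 3, 63 without control replicate 2, 8 without shZMAT2-2 replicate 1, and 25, 51 and 19 without shZMAT2-1 replicates 1, 2 and 3. All 63 kept their sign in each of these 9 fits, as groups that do not overlap must. Other scalings moved the median over all genes by under 0.1 log2 units.

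ZMAT2 passed the threshold with the covariate (-0.74), without control replicate 2 (-0.84) and without that library and shZMAT2-2 replicate 1 (-0.87). It ran from -0.84 to -0.71 over the leave-one-out fits. TRIM28 was 0.10 with the covariate, 0.19 with the covariate and without control replicate 2, and -0.62 to 0.12 with 1 library left out (0.12 without control replicate 1 or 3, 0.08 without shZMAT2-2 replicate 1). RPS27A, -0.88 with all libraries, was 0.0203 with the covariate and without control replicate 2. The difference in mitochondrial share, 7.24 percentage points, ran from -1.60 to 24.4 (-1.60 and -1.08 without control replicates 1 and 3). The difference between the arms had 0 calls in every fit it was run in, which excludes the fit of only the 6 libraries.

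The replicate numbers did not pair the groups compared: deviations of same-numbered control and shZMAT2-2 libraries correlated at -0.76, -0.22 and 0.61. Those of control and shZMAT2-1 correlated at 0.61, 0.78 and 0.69, and of the 2 hairpins at -0.63, 0.18 and 0.63. With the replicate block 43 genes were called higher and 9 lower, and 43 of the 63 members were still called.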

Other observations

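Without a covariate, longer genes had slightly higher estimates. Over the quartiles of total exon length, from shortest to longest, the median log2 difference was -0.01, 0.05, 0.06 and 0.10, and -0.32, -0.18, -0.13 and -0.04 without control replicate 2. With the mitochondrial covariate and all libraries the medians were nearly level, at 0.12, 0.14, 0.14 and 0.14. Heat shock and endoplasmic reticulum chaperones had medians of -0.08 and -0.13 (-0.28 and -0.47 without control replicate 2), with 0 called of 23 members each with all libraries. The 20 replication-dependent histones, many of which are near-identical copies, had a median of -0.03, and -0.36 without control replicate 2.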
